A study of Rattus norvegicus with 35 samples.

Results

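The aryl hydrocarbon receptor (AhR) pathway was described here through 8 genes, Cyp1a1, Cyp1a2, Cyp1b1, Tiparp, Ahrr, Ahr, Arnt and Aldh3a1, taken by name from the platform annotation. They were carried by 10 probe sets, with a pair each for Tiparp and Ahr, out of 14217 genes that had a probe set of their own. Primary rat hepatocytes, liver cells taken from the animal and kept in culture, had been exposed through the medium for 72 h, and their total RNA was measured on Affymetrix rat expression arrays. The 12 groups were the vehicle DMSO at 0.1%, the triazole fungicides myclobutanil, propiconazole and triadimefon at 10, 30 and 100 uM each, and the positive controls of the series. These were phenobarbital at 200 uM and PCN at 30 uM, and the labels name no group as a reference inducer of AhR. Every group had 3 arrays, 1 per code in the labels (Rs256, Rs293, Rs304), but for PCN, of which there were 2, without Rs256. The series design calls the arrays of a group biological replicates. What the Rs code marks is not given in the sources used here, and neither are strain, sex, age or the number of animals. Propiconazole at 100 uM was the treatment in which pathway genes passed the test. It also had the most calls over the whole array, 12% of all genes tested against at most 1.83% in any other treatment. Tiparp and Cyp1b1 rose, though both calls were lost in some alternative fits, that of Cyp1b1 in more of them. Cyp1a2 and Arnt joined them once the Rs code was taken into account, where 29.3% of all genes were called. No difference was called for Cyp1a1.

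AhR is a ligand-activated transcription factor that waits in the cytoplasm in a complex with Hsp90, enters the nucleus when a planar aromatic ligand binds, pairs there with Arnt and attaches to short response elements near its target genes. Its best known targets in liver are the monooxygenases Cyp1a1 and Cyp1a2, joined in many tissues by Cyp1b1, the aldehyde dehydrogenase Aldh3a1, the ADP-ribosyltransferase Tiparp, which acts back on AhR, and the repressor Ahrr, which competes with AhR for Arnt. Cyp1a2 is also expressed in liver without an inducer, and its level is known to fall when hepatocytes are kept in culture.

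Values are in units of the deposited log-like scale after quantile normalization, 0 lying near the array median, and are given as differences and not as folds because the log base is not stated. If the hybridization controls were added at 5, 25 and 100 pM, a doubling corresponded to 0.487 units. The deposited values had array medians of -0.03 to 0.02 and SDs of 0.646 to 0.941, the highest SD being propiconazole at 30 uM in Rs293 and the next highest 0.754. Of 9 hepatocyte markers on the array, 8 lay above the array median on all 35 arrays, whereas 6 of 6 endothelial markers lay below it on every array. The other lists were mixed. Of 8 macrophage markers, Adgre1, Cd163 and Ptprc lay below it on every array, but Cd14 and Lyz2 above it on all 35. The stellate cell markers Acta2 and Sparc and the cholangiocyte marker Epcam also lay above it on all 35. In a culture, fewer cells of a type and less RNA per cell cannot be told apart. All comparisons with a treatment used the same 3 DMSO arrays. A gene was called at an adjusted p below 0.05 in limma, adjusted over 10490 genes.

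**Figure D1:**
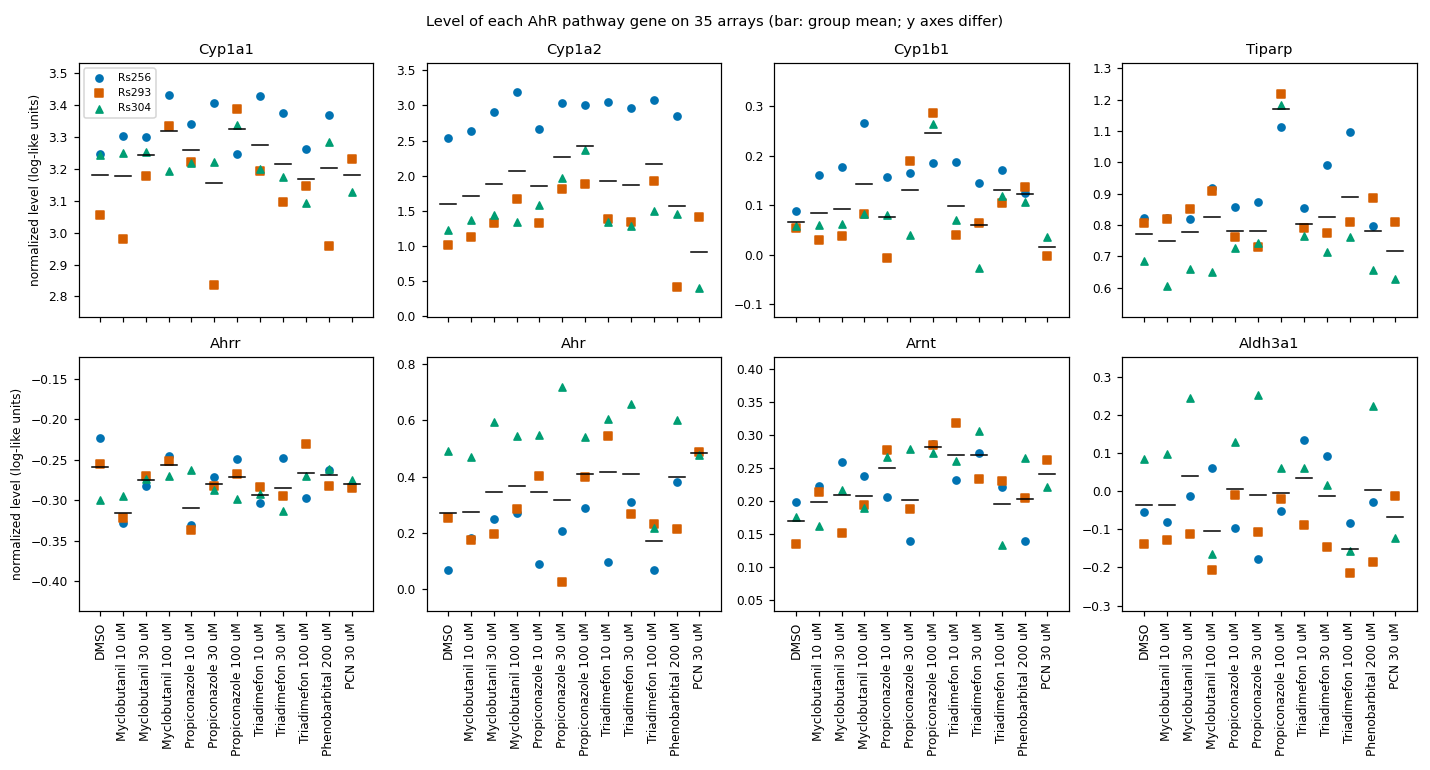
Normalized level of each of the 8 genes (y axis, log-like units, a different range in each panel) on all 35 arrays, by treatment group (x axis), with 1 point per array coloured by Rs code and a bar at the group mean. The 3 Tiparp points at propiconazole 100 uM sit between 1.11 and 1.22, above all other Tiparp points, and the Cyp1a2 points of Rs256, from 2.53 to 3.19, lie above all those of the other codes.

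Tiparp gave the clearest response. In DMSO its level was 0.82 in Rs256, 0.81 in Rs293 and 0.69 in Rs304, and with propiconazole at 100 uM it was 1.11, 1.22 and 1.18. On these values all 3 propiconazole arrays lay above every array of the other 11 groups, of which the highest was 1.10, triadimefon at 100 uM in Rs256. As deposited, that triadimefon array read 1.17, between the propiconazole arrays at 1.09, 1.21 and 1.15, so the separation from it depended on the normalization. Tiparp rose by 0.40 units (SE 0.0890, 95% interval 0.22 to 0.58, adjusted p = 0.00329), higher in 3 of 3 codes. With the Rs code as a block the adjusted p was 1.44e-05.

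The other Tiparp probe set read 0.39, 0.30 and 0.30 in DMSO and 0.75, 0.66 and 0.66 at 100 uM propiconazole in the same order of codes. The step within each code was 0.36 in all 3 codes, and the fit over probe sets gave 0.36 (SE 0.0910, adjusted p = 0.00936). Both probe sets of Tiparp thus rose, although 1 gene's probe sets share their RNA and are not replicates. Without the arrays of Rs293 the Tiparp difference was 0.39 and its adjusted p 0.0916.

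The Tiparp response did not build up evenly over dose. At 10 and 30 uM propiconazole the differences from DMSO were 0.01 and 0.01 units, neither called. With triadimefon at 100 uM Tiparp read 1.10 in Rs256, 0.81 in Rs293 and 0.76 in Rs304, which was 0.27, 0.00 and 0.07 above the DMSO array of the same code. The other Tiparp probe set showed the same split between codes, with 0.35, 0.03 and 0.07, and its Rs256 value of 0.74 lay above the propiconazole arrays of Rs293 and Rs304. The triadimefon group therefore overlapped DMSO, and its mean difference of 0.12 was not called (adjusted p = 0.687). The group means ran from 0.72 (SD 0.128, n = 2) with PCN to 0.89 (SD 0.181, n = 3) with triadimefon at 100 uM, followed by 1.17 (SD 0.0528, n = 3) with propiconazole at 100 uM. Neighbouring means below that of propiconazole at 100 uM lay within their SDs of each other.

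Cyp1b1, a monooxygenase of the same family that is active on estradiol and on polycyclic hydrocarbons, lay close to the array median throughout and above it on 33 of 35 arrays. Its level was 0.09, 0.05 and 0.06 in DMSO and 0.19, 0.29 and 0.26 with propiconazole at 100 uM (Rs256, Rs293 and Rs304). These groups did not overlap, and the step was smallest in Rs256, at 0.10 against 0.23 and 0.21 in the other codes. For how many of all genes these groups separated was not determined. Cyp1b1 rose by 0.18 units (SE 0.0557, 95% interval 0.06 to 0.29, adjusted p = 0.0343), and with the block the adjusted p was 0.00298. The call was not held on the values as deposited, where the difference was 0.18 with an adjusted p of 0.105. It was also lost without Rs293 (0.15, adjusted p = 0.298) and without Rs304 (0.17, adjusted p = 0.351), and leaving out 1 array of the compared groups at a time ended it for 5 of 6 arrays.

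Some further Cyp1b1 values were high in 1 code. With myclobutanil at 100 uM the level was 0.27 in Rs256 and 0.08 in both other codes, and the difference of 0.08 was not called (adjusted p = 0.723). The phenobarbital arrays (0.13, 0.14 and 0.11) and the triadimefon arrays at 100 uM (0.17, 0.10 and 0.12) lay wholly above the DMSO arrays, and the PCN arrays (-0.00 and 0.04) wholly below, but none of these differences was called.

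The 250 bases before the annotated start of Tiparp, Cyp1b1 and Cyp1a2 are shown, genes chosen with their levels known. They were taken from RefSeq on the rat build GRCr8, 5' to 3' on the strand of the gene. Capitals mark the AhR response element core GCGTG and its reverse complement CACGC, which together search both strands. The Tiparp window is chr2:152063519-152063768 (plus strand), that of Cyp1b1 chr6:21094315-21094564 (plus strand) and that of Cyp1a2 chr8:66978150-66978399 (minus strand).
Tiparp: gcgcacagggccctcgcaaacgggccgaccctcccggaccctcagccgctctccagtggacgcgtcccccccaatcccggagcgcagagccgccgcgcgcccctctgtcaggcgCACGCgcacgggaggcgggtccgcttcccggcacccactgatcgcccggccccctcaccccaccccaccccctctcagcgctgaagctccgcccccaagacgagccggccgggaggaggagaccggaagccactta
Cyp1b1: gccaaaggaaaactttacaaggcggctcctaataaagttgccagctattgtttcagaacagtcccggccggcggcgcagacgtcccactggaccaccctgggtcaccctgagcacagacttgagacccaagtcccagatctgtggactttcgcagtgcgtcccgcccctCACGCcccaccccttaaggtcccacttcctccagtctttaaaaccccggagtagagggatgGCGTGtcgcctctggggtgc
Cyp1a2: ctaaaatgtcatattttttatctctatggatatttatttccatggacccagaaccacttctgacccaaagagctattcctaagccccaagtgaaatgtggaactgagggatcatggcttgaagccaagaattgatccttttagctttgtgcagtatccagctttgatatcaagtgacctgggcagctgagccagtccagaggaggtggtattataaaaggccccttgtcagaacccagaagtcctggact
The Tiparp window held 1 match, starting 136 bases before the start of the gene, and the Cyp1b1 window 2, at 81 and 20 bases. These letters were not found in the Cyp1a2 window. Of the 8 genes, 6 matched the promoter table, Cyp1a1 and Aldh3a1 being absent from it, and 4 of those 6 held a match: Ahrr had 3, Arnt 1, and Ahr none. The same letters occurred in 25.9% of all 33469 windows of that length. A match describes the letters and is not a site shown to be bound, and a link between matches and changes in level was not tested.

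Cyp1a2, the main constitutive Cyp1 enzyme of liver and the one that metabolizes caffeine, differed more between the codes than between the treatments. Over 11 arrays of Rs256 its level ran from 2.53 to 3.19 (median 2.97), over 12 arrays of Rs293 from 0.41 to 1.92 (median 1.36), and over 12 arrays of Rs304 from 0.40 to 2.36 (median 1.40). Rs256 did not overlap the other codes, and 78.0% of the variance of Cyp1a2 over arrays lay between codes. The unblocked SE for Cyp1a2 was 0.672 units and the blocked SE 0.231, so the blocked values are given beside the others.

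Within codes, Cyp1a2 was higher than in the DMSO array of the same code on 30 of 32 treated arrays. The 2 exceptions were phenobarbital in Rs293, at 0.41 against 1.01 in DMSO, and PCN in Rs304, at 0.40 against 1.23. Each of the 9 triazole groups was above DMSO in all 3 codes. All 32 differences used the same 3 DMSO arrays, 1 per code, and so are not independent of each other. In Rs256 the DMSO array had the lowest Cyp1a2 value of the 11 arrays, so every treated array of that code counted as higher. How many of all genes reach such a count was not determined.

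With propiconazole at 100 uM the blocked fit called Cyp1a2, the 1 treatment in which it did. In DMSO the level was 2.53, 1.01 and 1.23 (Rs256, Rs293 and Rs304), and at 100 uM propiconazole it was 3.01, 1.89 and 2.36. The groups overlapped across codes, but within codes the level stood 0.47, 0.87 and 1.13 units above DMSO. The mean difference was 0.83 (adjusted p = 0.518 without the block). With the block Cyp1a2 rose (95% interval 0.35 to 1.30, adjusted p = 0.00826). Without Rs256 the unblocked difference was 1.001 and was called (adjusted p = 0.0425), and on the deposited values with the block the adjusted p was 0.0986.

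At 30 uM propiconazole the Cyp1a2 difference was 0.68 (adjusted p = 0.12 with the block), with steps within code of 0.51 in Rs256, 0.80 in Rs293, the array of widest spread, and 0.73 in Rs304. At 10 uM it was 0.27. With triadimefon it was 0.33, 0.27 and 0.57 at 10, 30 and 100 uM, and with myclobutanil 0.12, 0.29 and 0.47. With the block the adjusted p at 100 uM was 0.114 for triadimefon and 0.222 for myclobutanil, so neither was called. Within Rs256 the step at 100 uM was 0.65 with myclobutanil and 0.55 with triadimefon, both above the 0.47 of propiconazole, so the compounds had no common order over codes. Phenobarbital differed by -0.02, and PCN by -0.68 without the block and by -0.20 with it, the PCN group holding no array of the high code Rs256. The step over doses was rising in 2 of 3 codes with propiconazole and with myclobutanil.

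**Figure D2:**
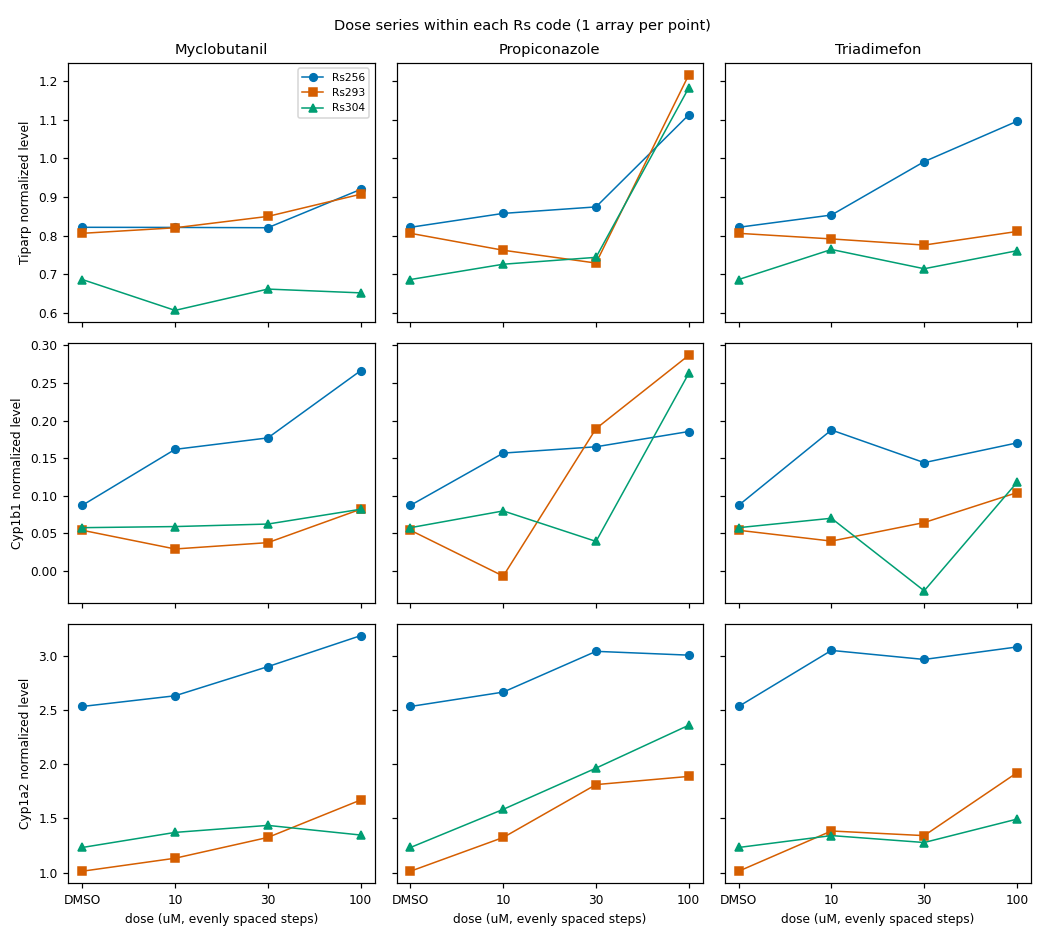
Normalized level (y axis, log-like units) of Tiparp, Cyp1b1 and Cyp1a2 in DMSO and at 10, 30 and 100 uM of each triazole (x axis, evenly spaced steps), with 1 line per Rs code and 1 array per point. Tiparp stays near its DMSO level up to 30 uM propiconazole and stands above 1.1 in all codes at 100 uM, and the Cyp1a2 line of Rs256 lies above the other lines in every panel.

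Cyp1a1, the most strongly inducible Cyp1 enzyme, was not called in any comparison. Its probe set ranked between the 99.0th and the 99.7th percentile of each array in every group, DMSO included, so it was read at the top of the range, where quantile normalization narrows differences between arrays. Its level was 3.25, 3.06 and 3.24 in DMSO and 3.25, 3.39 and 3.34 with propiconazole at 100 uM (Rs256, Rs293 and Rs304). The groups overlapped, with steps within code of 0.00, 0.33 and 0.10. The difference was 0.14 (SE 0.116, 95% interval -0.10 to 0.38, adjusted p = 0.518), and with the block the adjusted p was 0.242. On the values as deposited it was 0.12 (95% interval -0.53 to 0.77, adjusted p = 0.943). These intervals do not show that Cyp1a1 was unaltered.

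The remaining treatments gave Cyp1a1 differences from -0.03 to 0.14 units. The lowest of them, for propiconazole at 30 uM, was 0.13 without the Rs293 array of widest spread, on which Cyp1a1 read 2.83. Over all 35 arrays Cyp1a1 ran from 2.83 to 3.43 after normalization and from 2.66 to 4.15 as deposited. The normalized minimum and the deposited maximum were the same array, propiconazole at 30 uM in Rs293. Its step from the DMSO array of its code was -0.22 after normalization and 1.31 as deposited, so the normalization reversed its sign. As deposited, the mean of that group was 3.48 (SD 0.757, n = 3) against 3.06 (SD 0.194, n = 3) in DMSO.

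Aldh3a1, which oxidizes aromatic and fatty aldehydes and is low in normal liver, lay between -0.22 and 0.25 and above the array median on 12 of 35 arrays. With propiconazole at 100 uM it read -0.05, -0.02 and 0.06, against -0.05, -0.14 and 0.09 in DMSO. The groups overlapped, and the difference was 0.03 (95% interval -0.20 to 0.26, adjusted p = 0.92). With triadimefon at 100 uM all 3 arrays lay at or below -0.08 and the difference was -0.12 (adjusted p = 0.781).

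Among the receptor genes, Ahr itself was not called anywhere and differed between codes. Its level in DMSO was 0.07, 0.25 and 0.49 (Rs256, Rs293 and Rs304), and the medians over all arrays of a code were 0.21, 0.26 and 0.55. Between codes lay 57.8% of its variance over arrays. The order of the codes was thus not that of Cyp1a2, which was highest in Rs256. Ahr with propiconazole at 100 uM was 0.29, 0.40 and 0.54, a difference of 0.14 (95% interval -0.20 to 0.48, adjusted p = 0.69). The other Ahr probe set was below the array median on all 35 arrays and was not tested in the fit over genes.

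Arnt, the partner that AhR needs on DNA, varied little, between 0.13 and 0.32. It read 0.20, 0.13 and 0.18 in DMSO and 0.29, 0.28 and 0.27 with propiconazole at 100 uM, without overlap. The difference of 0.11 (SE 0.0387, 95% interval 0.03 to 0.19) missed the threshold without the block (adjusted p = 0.0595) and passed it with the block (adjusted p = 0.0308), but not with the block on the deposited values (adjusted p = 0.0812). Arnt was higher than in the DMSO array of its code on 28 of 32 treated arrays, again against the same 3 DMSO arrays. In Rs293 the DMSO array had the lowest Arnt value of the 12 arrays. At 10 uM triadimefon the difference was 0.10 and at 30 uM it was 0.10, neither called. With propiconazole at 10 uM the mean was 0.25 (SD 0.0381, n = 3) against 0.17 (SD 0.0325, n = 3) in DMSO, also not called. The arrays of these groups and of PCN likewise lay wholly above the DMSO arrays, so the separation was not particular to propiconazole at 100 uM. The share of all genes separated in this way was not determined.

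Ahrr, the repressor, lay between -0.34 and -0.22 and below the array median on all 35 arrays, so it was not tested. With propiconazole at 100 uM it read -0.25, -0.27 and -0.30, against -0.22, -0.26 and -0.30 in DMSO, and the groups overlapped.

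**Figure D3:**
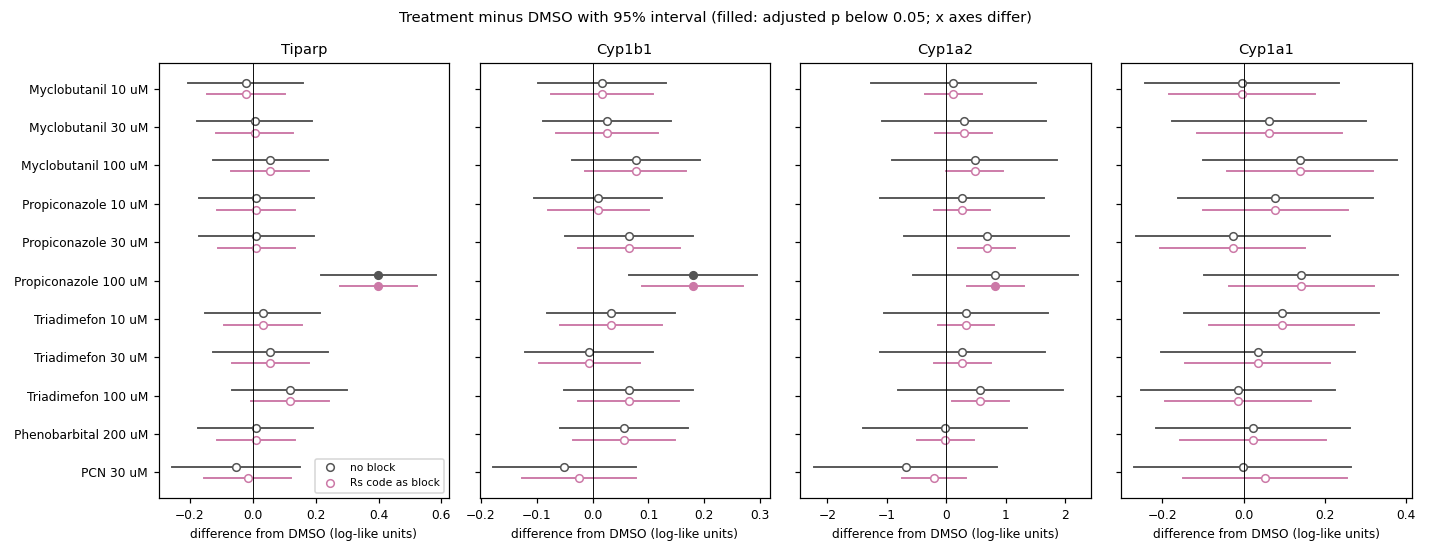
Difference from DMSO (x axis, log-like units, a different range in each panel) of Tiparp, Cyp1b1, Cyp1a2 and Cyp1a1 in the 11 treatments, with 95% intervals from the fit without a block (grey) and with the Rs code as a block (pink), filled where the adjusted p is below 0.05. Tiparp and Cyp1b1 are filled at propiconazole 100 uM in both fits, Cyp1a2 in the blocked fit only, and Cyp1a1 in neither.

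Counted over the 7 genes tested (Ahrr did not pass the filter on low values), propiconazole at 100 uM gave 2 called, both higher, in a comparison in which 12% of all genes tested were called, 6.37% higher and 5.6% lower. The median difference was 0.14 for these genes and 0.01 for all genes tested. With the block 4 of 7 were called higher, against 29.3% of all genes called and 15.7% called higher. Among the marker lists of other liver cells, the macrophage list had 1 of 5 tested genes called higher there (Cd68). Its median difference over those 5 was -0.004, against 0.01 for all genes tested. Its summed level was 2.13 to 3.31 against 0.771 to 2.85 in DMSO. Of its 8 measured genes, 3 lay below the array median on every array and 2 above it on every array. The stellate cell list had 0 of 8 called, with a summed level of -0.40 to 1.20 against 0.720 to 2.80 in DMSO. With the block, where 4 of the pathway genes were called, 2 of 5 macrophage markers were called higher, 1 of 8 stellate cell markers higher and 2 lower, 1 of 9 hepatocyte markers higher and 1 lower, and 0 of 3 cholangiocyte markers. The part of these lists in the result was not tested. The difference between 3' and 5' probe sets of Actb, a sign of RNA integrity, was 0.766 (SD 0.0378, n = 3) in DMSO and 0.648 (SD 0.0776, n = 3) with propiconazole at 100 uM. For Gapdh, the other such control, it was 0.188 (SD 0.0556, n = 3) and 0.186 (SD 0.0949, n = 3). The part of RNA integrity was not tested either.

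In the other 10 treatments limma called 0 of the 7 genes in both fits. At an unadjusted p under 0.05 without the block, 1 did pass with propiconazole at 10 uM and with triadimefon at 10 and 30 uM, Arnt each time, and 0 in the other 7. In those treatments 99, 130 and 508 of all 10490 genes had such a p. The share of all genes called was 1.21% with myclobutanil at 100 uM (0.639% higher and 0.572% lower) and 1.83% with triadimefon at 100 uM (0.867% higher and 0.963% lower). It was 0.0381% and 0.0286% with propiconazole and triadimefon at 30 uM, 0.00953% with myclobutanil at 30 uM, propiconazole at 10 uM, phenobarbital and PCN, and 0% with the remaining 2 treatments at 10 uM. With the block these shares were 9.92% and 11.8% with myclobutanil and triadimefon at 100 uM, 2.62% and 1.05% with propiconazole and triadimefon at 30 uM, and at most 0.0286% in the other 6 treatments.

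On the slope per unit of log10 dose between 10 and 100 uM, Tiparp rose with propiconazole by 0.39 units (SE 0.0890, adjusted p = 0.00504), and its other probe set by 0.40 (adjusted p = 0.00616). This was 1 call among the 7 genes, where 8.73% of all genes were called. From 10 to 100 uM the Tiparp level moved by 0.26, 0.45 and 0.46 in Rs256, Rs293 and Rs304, nearly all of it above 30 uM. The slope call was lost without Rs293 (0.36, adjusted p = 0.162) and without Rs304 (0.36, adjusted p = 0.0566). For Cyp1b1 the propiconazole slope was 0.17 (adjusted p = 0.0586, and 0.00587 with the block, where 24.8% of all genes were called).

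The Cyp1a2 slope with propiconazole was 0.56 (adjusted p = 0.742, and 0.0832 with the block). With myclobutanil and with triadimefon limma called 0 of 7 slopes in both fits. The share of all genes called was 0.248% and 0.0763% without the block and 6.63% and 2.93% with it. Without the block 0 of 7 had an unadjusted p under 0.05 with either compound, against 980 and 727 of all 10490 genes. With the block 0 did with myclobutanil and 2 with triadimefon, Ahr and Aldh3a1, against 2251 and 1791 of all 10490. The largest of the members' slopes in size below 0 was that of Ahr with triadimefon, -0.25 (adjusted p = 0.872, and 0.172 with the block). There the Ahr level went from 0.10, 0.55 and 0.61 at 10 uM to 0.07, 0.23 and 0.22 at 100 uM.

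The 3 triazoles share the triazole ring and a chlorinated phenyl group and differ in the rest of the molecule: there is a nitrile in myclobutanil, a ketone in triadimefon and a dioxolane ring in propiconazole. Between them 9 pairs were compared at equal dose and time. Tiparp was 0.34 units higher with propiconazole than with myclobutanil at 100 uM (SE 0.0890, 95% interval 0.16 to 0.53), with an adjusted p of 0.0718 over all genes, 0.000767 with the block and 0.00604 over the 9 pairs. Against triadimefon it was 0.28 higher (95% interval 0.10 to 0.46), with 0.232 over all genes, 0.00578 with the block and 0.018 over the 9 pairs. The share of all genes called was 0.744% and 0.505% in these comparisons without the block and 7.09% and 4.59% with it.

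Triadimefon and myclobutanil at 100 uM differed in Tiparp by 0.06 units (95% interval -0.12 to 0.25), which leaves room for a difference in either direction. No other of the 7 genes was called in any pair, with or without the block. Cyp1b1 was 0.10 higher with propiconazole than with myclobutanil (95% interval -0.01 to 0.22) and 0.11 higher than with triadimefon (95% interval -0.00 to 0.23) at 100 uM. For Cyp1a2 the blocked intervals were -0.13 to 0.83 for propiconazole minus myclobutanil, -0.22 to 0.73 for propiconazole minus triadimefon and -0.38 to 0.57 for triadimefon minus myclobutanil. At 10 and 30 uM limma called 0 of 7 in each of the 6 pairs, where 0% of all genes were called, and 0 had an unadjusted p under 0.05.

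**Figure D4:**
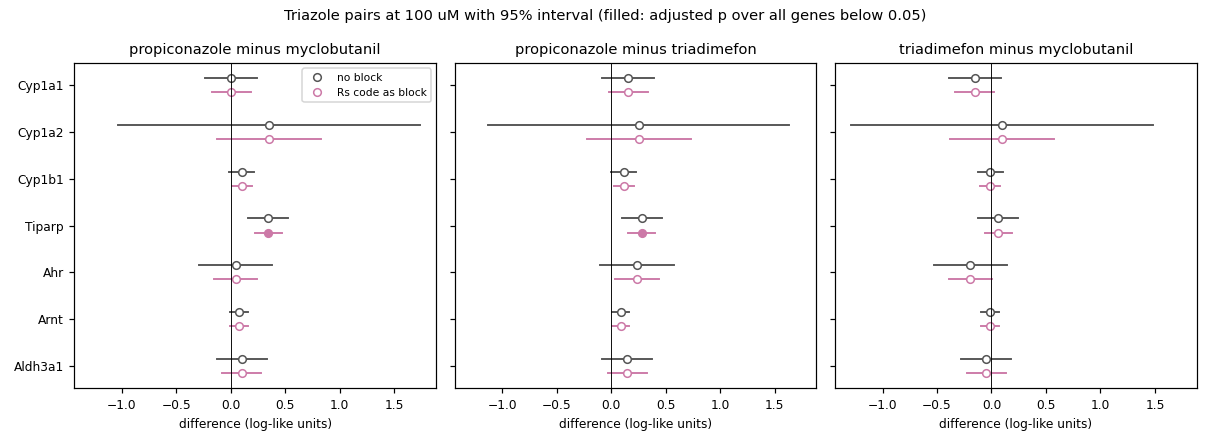
Difference between triazoles at 100 uM (x axis, log-like units) for the 7 genes tested, with 95% intervals from the fit without a block (grey) and with the Rs code as a block (pink), filled where the p adjusted over all genes is below 0.05. Tiparp is filled in the blocked fit for propiconazole minus each other triazole (0.34 and 0.28), and the Cyp1a2 intervals of the unblocked fit are the widest.

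Other genes of the pathway were taken from a list of 14 further AhR targets, 9 of them tested. With propiconazole at 100 uM 2 rose and 1 fell, where 6.37% of all genes tested were called higher and 5.6% lower, and the median difference was -0.05 against 0.01 for all genes. Nqo1, a quinone reductase that also answers to the transcription factor Nfe2l2, rose by 0.78 units (SE 0.159, adjusted p = 0.00157), and Slc7a5, a carrier of large neutral amino acids, by 0.27 (adjusted p = 0.0292). Fgf21, a liver hormone of fasting that is also a target of PPARalpha, fell by 1.04 (adjusted p = 8.09e-05). Fgf21 fell too with myclobutanil at 100 uM, by 0.68 (adjusted p = 0.0327), and with triadimefon at 100 uM, by 0.75 (adjusted p = 0.0139), in which treatments no other target of the list was called. Nqo1 differed by 0.32 with triadimefon at 100 uM (adjusted p = 0.41) and was called there with the block (adjusted p = 0.0175), and by 0.05 with myclobutanil.

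Of 13 chaperones and partners of AhR, such as the Hsp90 subunit Hsp90ab1, the co-chaperone Ptges3 and the Arnt-binding factor Hif1a, 11 were tested. At 100 uM limma called 0 of 11 with any triazole. Of all genes, 12% were called with propiconazole, 1.21% with myclobutanil and 1.83% with triadimefon. The median difference with propiconazole was 0.05. At an unadjusted p under 0.05 there was 1 with propiconazole, Sp1 (-0.11, adjusted p = 0.0673), and 0 with the other triazoles. Among all 10490 genes such a p was held by 2559 with propiconazole, 1081 with myclobutanil and 1313 with triadimefon. With the block Sp1, a widely expressed transcription factor, and Rela, a subunit of the inducible factor NF-kB, were called lower with propiconazole (-0.11 and -0.13), 2 of 11 genes where 29.3% of all genes were called and 13.6% called lower. Epas1, another partner of Arnt, was called higher with triadimefon (0.20, adjusted p = 0.0187), 1 of 11 where 11.8% of all genes were called and 6.16% called higher. With phenobarbital and PCN limma called 0 genes of either list in both fits, where at most 0.0286% of all genes were called. Without the block 0 of either list had an unadjusted p under 0.05, against 96 and 187 of all 10490 genes.

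Over the 12 group means of the blocked fit, the 3 tested genes most like Tiparp by Pearson r were Igsf23 (0.993), Sfn (0.993) and Serpina3l (0.992). Those most like Cyp1b1 were Ccdc22 (0.962), Adsl (0.956) and Senp2 (0.953), and those most like Cyp1a1 were Taok1 (0.879), Uros (0.864) and Hdac10 (0.845). Tiparp and Cyp1b1 correlated at 0.858 over the 12 means and at 0.495 over the 11 without propiconazole at 100 uM, so their likeness rested in large part on that group. For Cyp1b1 and Cyp1a2 the values were 0.792 and 0.71, and for Tiparp and Cyp1a2 0.688 and 0.622. These are descriptions over 12 groups that share arrays, codes and a normalization.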

How the data were processed

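Each array had 1 deposited value per probe set, a score that behaves like a logarithm. The authors' base, probe summary, background correction and normalization are not given in the sources used here. The design written for this work assumed log values, so quantile normalization and limma on that scale were kept and no fold is given. The table held 31099 probe sets, 57 of them controls. The platform annotation named 1 gene for 20826, several for 436 and none for 9780, and 20758 of those with 1 gene matched the RefSeq table.

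A gene was the probe set of highest mean over arrays naming that gene alone. Genes above the array median on 2 or more of 35 arrays were tested, 10490 of 14217. limma 3.58.1 in R 4.3.3 (lmFit, eBayes, two-sided, 1 mean per group, no covariate) gave 11 comparisons with DMSO, 9 triazole pairs and 3 slopes on log10 dose, each adjusted by Benjamini and Hochberg. The fit was tested on simulated data. The number of arrays limits the precision.

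The members and gene lists were chosen with earlier results of these data known. All 8 members are named. Other pathway genes are named if called at 100 uM of a triazole, with phenobarbital or with PCN, and for likeness the 3 genes of highest r. The Rs code was tried as a replicate block. After group means were removed, arrays of 1 code correlated across genes at a median r of 0.634 (187 pairs, lowest 0.037, and lowest with a DMSO array 0.277). Arrays of different codes correlated at a median of -0.355. Removing the mean of a group with 1 array per code itself pulls that value below 0, so it is no separate evidence. Since the labels give no paired analysis, the main values come from the fit without the block. Further alternatives were the values as deposited, median centring, each probe set as a feature, no filter, only the compared groups, and leaving out codes or arrays. Leaving out the array of widest spread, and the deposited values with the block, were chosen after seeing the data.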

Additional observations from a re-analysis of the deposited data

How the results depend on the processing

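With the Rs code as a replicate block the number of calls among the pathway genes against DMSO went from 2 to 4, among the triazole pairs from 0 to 2 and among the slopes from 1 to 2. The share of all genes called rose as well, from 12% to 29.3% with propiconazole at 100 uM against DMSO. It went from 0.744% to 7.09% against myclobutanil and from 0.505% to 4.59% against triadimefon at 100 uM. For the propiconazole slope it went from 8.73% to 24.8%. On the deposited values with the block the calls among the pathway genes were 2, 1 and 2. On the deposited values without it the calls against DMSO were 1, with propiconazole at 100 uM, where 4.08% of all genes were called. With only the compared groups in the fit the calls against DMSO were also 1, Cyp1b1 being lost at a difference of 0.18 (adjusted p = 0.0729). Cyp1b1 on the deposited values also differed by 0.18 (adjusted p = 0.105). Leaving out 1 code at a time gave 0 to 3 calls against DMSO, 0 to 1 among pairs and 0 to 2 among slopes. Leaving out a code or an array, the propiconazole difference at 100 uM ran from 0.15 to 0.22 for Cyp1b1 and from 0.35 to 0.45 for Tiparp, whose call was lost without Rs293 (0.39, adjusted p = 0.0916). Of 161 values for single genes, the 2632 alternatives gave 12 new calls and 12 lost ones. No called value changed sign. Among values not called, 275 alternatives changed sign, the largest being Cyp1a2 with myclobutanil at 100 uM, from 0.47 to -0.08 when its Rs256 array alone was left out of the fit without a block. The top of the array range limits what Cyp1a1 can show, values near the array median limit Cyp1b1 and Aldh3a1, and values below it on every array limit Ahrr.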
